A study of Mus musculus with 8 samples.

Results

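The genes described here are those of the epidermal growth factor (EGF) family in mouse fibroblast clones. The 10 members were the rows of the RNA-seq comparison whose symbol was that of 1 of 7 ligands (Ereg, Hbegf, Areg, Tgfa, Btc, Epgn and Nrg1) or 3 receptors (Egfr, Erbb2 and Erbb3), among 24062 genes listed. RNA-seq and reduced representation bisulfite sequencing (RRBS), which reads methylation in CpG-rich fragments, were done on stable clones of NIH3T3, an immortalised mouse embryonic fibroblast line. Clones 10 and 12 carried 14-3-3ε in the FLAG vector p3xFLAG-CMV-10 and clones 2 and 3 carried control vector, so each group held 2 clones per assay, each grown from a single colony. Per the labels' protocols, the clones were kept in medium with 10% fetal bovine serum, and the protocol given with the samples of both groups describes selection in 800 µg/mL of the drug G418, which it words for cells that received 14-3-3ε, and a check of colonies for the FLAG tag by western blot. 14-3-3ε is a protein that binds phosphorylated partners.

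EGF family ligands are made as membrane-anchored precursors, which metalloproteases such as Adam10 and Adam17 cut to release the soluble factor. The ligands bind receptor tyrosine kinases that pair with one another. Egfr binds ligands of the EGF type, Erbb3 binds neuregulins but has little kinase activity of its own, and Erbb2 has no known ligand and acts as the preferred partner of the others. Paired receptors signal through Ras and the ERK kinases and through PI3 kinase. In fibroblasts, EGF receptor ligands act as mitogens, and epiregulin, the product of Ereg, was first purified from the medium of a tumour line derived from NIH3T3 cells.

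Both tables hold the authors' own comparison and no value per clone, so neither the level in each clone nor the spread between clones can be shown. Neither file states the direction of its differences. A positive value was read as a higher level in 14-3-3ε clones, and every "rose", "fell", "higher" and "lower" rests on that reading. The level of each gene is the mean normalized count over libraries, which is not divided by gene length and therefore does not rank genes by abundance. An adjusted p-value was given for 11482 genes, all with a mean normalized count of at least 33.1, and 10.9% of these were under 0.05 in the authors' deposited table. The fibroblast label matched the markers: all 10 fibroblast genes looked up had mean normalized counts from 4843 for Pdgfrb to 424650 for Fn1 in the authors' deposited table. Of 7 epithelial markers, Krt5 was listed at 0 and Epcam and Cdh1 had mean normalized counts of 0.502 and 0.732, while Krt8 and Krt14 had 51.1 and 52.7 in the authors' deposited table. The blood markers Ptprc, Lyz2 and Cd68 had 10.2, 36.6 and 110 in the authors' deposited table, so Lyz2 and Cd68 lay above the lowest level tested. The endothelial markers Pecam1, Cdh5 and Kdr had 5.72, 8.17 and 0 in the same column of the authors' deposited table. Among these markers, 6 of 10 fibroblast genes rose and none fell, where 6.15% of all tested genes were higher and 4.74% lower. Col3a1 rose by 3.25, Pdgfra by 1.70 and Pdgfrb by 1.36, and Krt14 fell by 1.41, on the log2 scale in the authors' deposited table. The part of these shifts in the results on EGF family genes was not tested.

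The receptor gene Egfr rose and the ligand gene Ereg fell, and no other member passed the test. Of the 10 members, 6 had an adjusted p (Egfr, Erbb2, Erbb3, Ereg, Hbegf and Nrg1). Of these 6, 1 was higher, where 6.15% of all tested genes were higher, and 1 was lower, where 4.74% were lower, in the authors' deposited table. The median log2 fold change of the 6 tested members was 0.16, against -0.003 over all tested genes, so the scale of the comparison was centred near 0. The remaining ligand genes Btc, Epgn, Areg and Tgfa were below the level at which the authors gave an adjusted p.

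**Figure D1:**
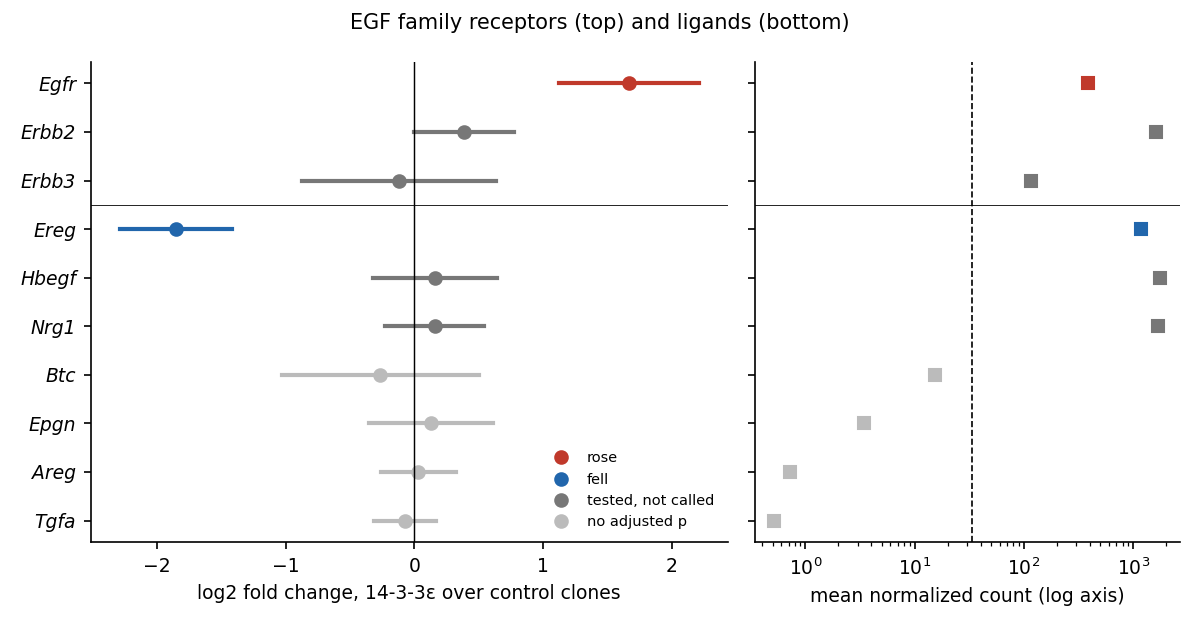
The left panel plots the log2 fold change of each EGF family gene, 14-3-3ε over control clones, with its 95% interval, receptors above the line and ligands below it. The right panel plots the mean normalized count on a log axis, with a dashed line at 33.1, the lowest level given an adjusted p. Only the intervals of Egfr (1.12 to 2.21) and Ereg (-2.29 to -1.42) lie clear of 0. Short intervals of genes left of the dashed line rest on few counts and do not show that these genes were unchanged.

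Egfr encodes the EGF receptor itself, which binds EGF, TGF-alpha, amphiregulin and, with Erbb4, several other ligands. It had a mean normalized count of 384 in the authors' deposited table. The authors' deposited table gave it a log2 fold change of 1.67 (SE 0.28, adjusted p 1.89e-07), the rank 90 by size among 706 rises. This is 3.17-fold, with a 95% interval of 2.18 to 4.63 computed from the fold change and standard error of the authors' deposited table. If the mean normalized count averages the 4 libraries with 2 per group, these values correspond to 585 in 14-3-3ε clones and 184 in control clones. A fold change held towards 0 by its estimate would understate that gap. The lncRNA genes Egfros and Gm39584 lie within the annotated span of Egfr and were not among the rows of the RNA table. Neither exons nor the use of strand in counting is given, so whether reads from them were counted for Egfr is unknown. The nearest genes of the table on either side were not called: Sec61g, a subunit of the protein translocation channel, had a log2 fold change of 0.12, and the lncRNA gene Eldr, 20.8 kb from Egfr, had 0.30 in the authors' deposited table.

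Erbb2 and Erbb3, the other receptor genes, did not pass the test. The authors' deposited table gave Erbb2 a mean normalized count of 1603 and a log2 fold change of 0.39 (SE 0.20), with p-values of 0.0505 before and 0.211 after adjustment. Its 95% interval ran from -0.0008 to 0.77 on the log2 scale. The authors' deposited table gave Erbb3 a mean normalized count of 115 and a log2 fold change of -0.12 (SE 0.39, adjusted p 0.895). Its standard error was close to the largest in the table, 0.40, and its interval of -0.87 to 0.64 was wide. Pa2g4, which lies 1.59 kb from Erbb3 and encodes an Erbb3-binding protein, had a mean normalized count of 8168 and fell by 0.59 on the log2 scale (SE 0.21, adjusted p 0.0449) in the authors' deposited table. This rose to 0.0674 when p-values were adjusted over every gene with a p-value, so that call depends on the filter. Rps26, the next gene on the other side of Erbb3, was not called, at a log2 fold change of -0.21 in the authors' deposited table (adjusted p 0.513).

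The promoters of Egfr and Erbb2 are shown because RRBS read cytosines in both and because the genes differed in their change of expression. They run from 250 bases before to 50 bases after the annotated start, 5′ to 3′ on the strand of the gene, as given by RefSeq for GRCm38.p6, the assembly of mm10. Capitals mark CpGs with a cytosine listed in the RRBS table. The Egfr sequence is chr11:16751953-16752252 and that of Erbb2 is chr11:98412234-98412533, both on the plus strand.
Egfr: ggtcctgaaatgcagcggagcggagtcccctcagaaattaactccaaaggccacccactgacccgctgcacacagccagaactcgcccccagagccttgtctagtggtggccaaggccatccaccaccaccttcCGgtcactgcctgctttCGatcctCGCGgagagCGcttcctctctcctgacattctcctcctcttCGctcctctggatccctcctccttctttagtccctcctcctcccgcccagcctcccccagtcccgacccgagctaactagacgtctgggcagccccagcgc
Erbb2: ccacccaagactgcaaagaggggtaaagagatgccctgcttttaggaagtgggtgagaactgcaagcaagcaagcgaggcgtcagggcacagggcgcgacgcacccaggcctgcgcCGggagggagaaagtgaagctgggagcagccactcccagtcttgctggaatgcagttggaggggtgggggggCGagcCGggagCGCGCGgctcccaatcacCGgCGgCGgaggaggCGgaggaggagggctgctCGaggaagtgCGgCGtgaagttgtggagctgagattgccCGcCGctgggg
The Egfr promoter holds 15 CpGs, of which 6 are capitalised, and the Erbb2 promoter 21, of which 15 are capitalised, against a median of 7 CpGs over 32851 promoters. The GC box letters GGGCGG, read on both strands, stand once in the Egfr promoter and not in that of Erbb2, and 35.7% of all promoters of the same length hold them. GGAATG, letters that TEAD factors bind, stand once in the Erbb2 promoter and not in that of Egfr, against 14.7% of all promoters. The AP-1 letters TGANTCA and the cyclic AMP response letters TGACGT were in neither, against 7.81% and 7.51% of all promoters. None of these motifs overlapped another in either sequence.

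Around the Egfr start, the median methylation difference was below 0 upstream and above 0 downstream, with values of either sign on both sides. Upstream, the 12 listed cytosines of the 6 capitalised CpGs, from -116 to -50 bases, had differences from -25.9 to 3.85 percentage points with a median of -12.1, and 9 of the 12 were below 0 in the authors' deposited table. Their mean was -10.6 points with an SD of 9.55 over cytosines, and 1 was called at q under 0.05, lower in 14-3-3ε clones. Downstream, from 55 to 705 bases, the 89 listed cytosines ran from -23.1 to 28.1 points with a median of 2.66, and 54 were above 0 and 33 below in the authors' deposited table. Their mean was 3.21 points with an SD of 10.1, with 2 called higher and none lower. The split at the start was made after these values were seen and was not tested, and cytosines on 1 fragment share reads.

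Called cytosines at Egfr were few. Over the whole window of 1000 bases on each side of the start, 3 of 101 were called, 2.97%, where 3.47% of all cytosines within 1000 bases of an annotated start and 4.74% of all listed cytosines were called. A further cytosine at position 16821676 of chromosome 11, inside Egfr and also inside the span of Egfros, was higher by 35.8 points (q = 0.00265) in the authors' deposited table, and its opposite strand differed by 6.82 points (q = 0.318). At none of the 4 called positions of Egfr was the opposite strand of the same CpG called. At Erbb2 none of the 73 listed start cytosines was called, with differences from -14.7 to 21.5 points in the authors' deposited table and a mean of -0.17 (SD 4.01). Inside Erbb2, 2 cytosines were called lower, by -21.3 points at 98423041 (q = 0.0228) and -37.5 points at 98433011 (q = 0.00331) in the authors' deposited table, neither with its opposite strand called.

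**Figure D2:**
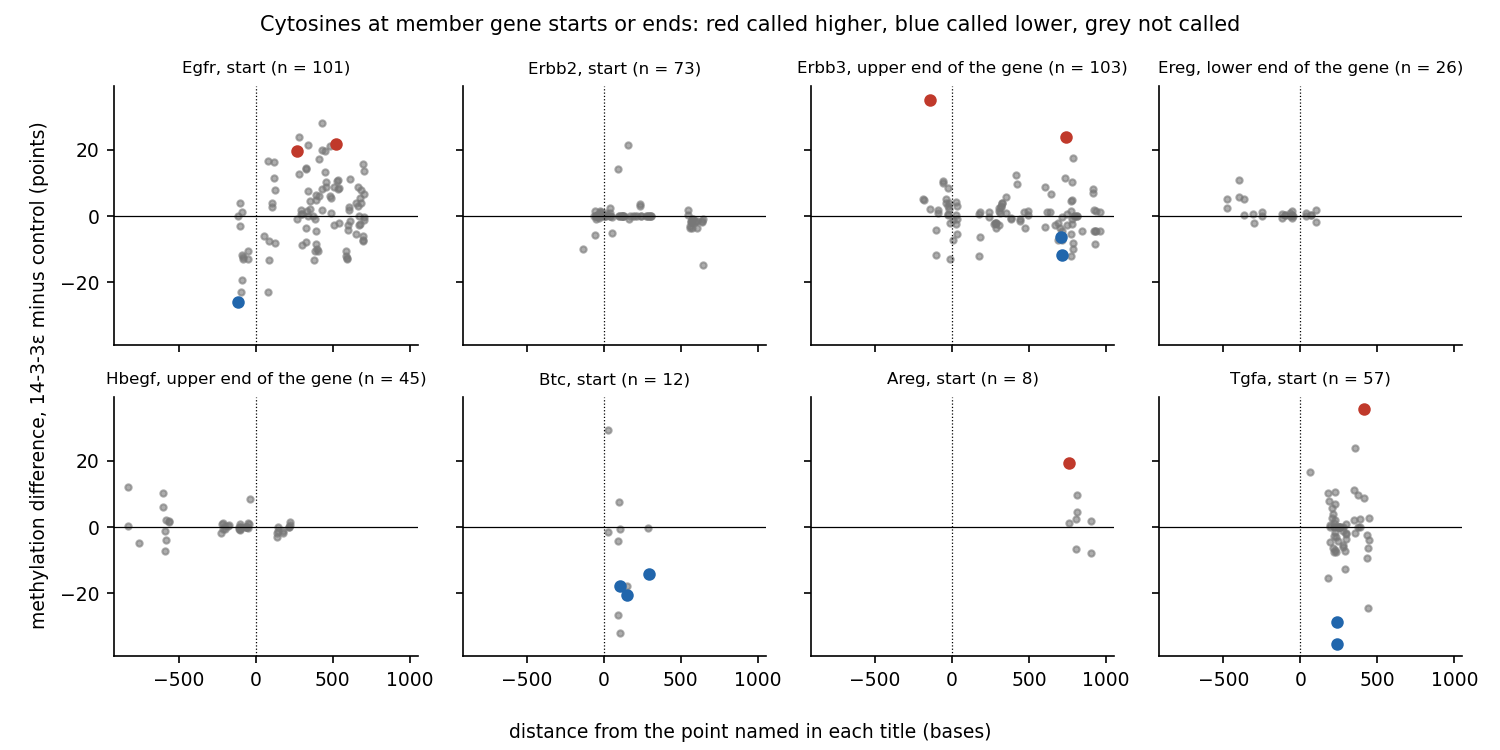
Each panel plots the methylation difference, 14-3-3ε minus control clones in percentage points, of every listed cytosine within 1000 bases of the start of a gene or, where the promoter table had no entry, of the gene end with more listed cytosines. Red points were called higher, blue points lower and grey points not called. Ereg and Hbegf have no called cytosine and values from -2.09 to 11.0 and -7.21 to 12.2 points, while 9 of the 12 Egfr points upstream of the start lie below 0.

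Ereg encodes epiregulin, a ligand of Egfr and Erbb4. The authors' deposited table gave it a mean normalized count of 1183 and a log2 fold change of -1.85 (SE 0.22, adjusted p 4.11e-14). By this estimate the level in control clones was 3.61-fold that in 14-3-3ε clones, with a 95% interval of 2.67 to 4.89 computed from the authors' deposited table. As for Egfr, a fold change held towards 0 would understate that gap. The same reading of the mean count as for Egfr gives 513 in 14-3-3ε clones and 1853 in control clones. The lncRNA gene Gm19610 overlaps the lower end of Ereg by 319 bases and was not among the rows of the RNA table.

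No cytosine at Ereg was called. Ereg lies on chromosome 5 from 91074617 to 91093649, and 30 cytosines were listed within it and 2000 bases on either side. Their differences ran from -2.09 to 11.0 points with a median of 0.566 and a lowest q of 0.0883 in the authors' deposited table. Of these, 26 lay within 1000 bases of the lower end, with a mean of 1.34 points and an SD of 2.73, and none within 1000 bases of the upper end. The coverage behind these values is unknown, so no limit on a smaller difference is given.

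Hbegf and Nrg1 were the other ligand genes with an adjusted p. Hbegf encodes heparin-binding EGF-like growth factor, which binds Egfr and Erbb4 and is also the receptor for diphtheria toxin in human cells. The authors' deposited table gave it a mean normalized count of 1773 and a log2 fold change of 0.16 (SE 0.25, adjusted p 0.754). Its 95% interval ran from -0.32 to 0.64, and the difference of its change from that of Ereg was not tested. At Hbegf none of 54 listed cytosines was called, with differences from -7.21 to 12.2 points in the authors' deposited table. Nrg1 encodes neuregulin 1, a ligand of Erbb3 and Erbb4. The authors' deposited table gave it a mean normalized count of 1694 and a log2 fold change of 0.16 (SE 0.20, adjusted p 0.691), for an interval of -0.23 to 0.55. Across the long span of Nrg1, on chromosome 8 from 31807452 to 32891609, 466 cytosines were listed and 3 were called higher and 8 lower, 2.36%, where 4.74% of all listed cytosines were called. The widest called differences were 59.0 points at 32009993 (q = 0.00909) and -45.7 points at 32120975 (q = 0.000195) in the authors' deposited table. The opposite strand at 32009993 differed by -9.72 points (q = 0.755), and that at 32120975 was not listed. Several lncRNA genes and Gm3985 overlap Nrg1, so how reads were split is uncertain.

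The 4 remaining ligand genes were near the lower limit of the RNA data. Btc, which encodes betacellulin, had a mean normalized count of 15.4 in the authors' deposited table and a log2 fold change of -0.26 (SE 0.39). Epgn, which encodes epigen, had 3.41 in the authors' deposited table and a log2 fold change of 0.13 (SE 0.25). Areg, the amphiregulin gene, had 0.728 and a log2 fold change of 0.03, and Tgfa, the TGF-alpha gene, had 0.520 and -0.07 in the authors' deposited table. Their unadjusted p-values lay between 0.499 for Btc and 0.828 for Areg in the authors' deposited table, from the DESeq2 model named in the processing notes. At the level of Areg and Tgfa, fold changes in this table were all small: of the 2386 listed genes with mean counts above 0 and up to 1, the largest log2 fold change was 0.113 in size. Standard errors were a poor guide to precision at these levels. Those of Areg and Tgfa were 0.15 and 0.12, while that of Hbegf, with a mean normalized count of 1773, was 0.25. These ligand genes thus cannot be read as unchanged.

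Ereg lies in a cluster of EGF receptor ligand genes on chromosome 5, with Epgn 39.4 kb on 1 side, Areg 46.0 kb on the other and Btc 209 kb beyond Areg. Chemokine genes stand next to the cluster. Within 500 kb of these 4 genes the RNA table held 18 genes, the ligand genes included, and 4 had an adjusted p. Of these, Ereg and Cxcl5 fell, where 4.74% of all tested genes were lower, and Cxcl1 and Mthfd2l were not called. The region was chosen around Ereg and other members, so Cxcl5 was the only fall among its tested genes that are not members. Cxcl5, which encodes a chemokine that attracts neutrophils, had a mean normalized count of 112 and fell by 1.78 on the log2 scale (SE 0.39, adjusted p 0.000213) in the authors' deposited table. Cxcl1, of the same chemokine class, had a log2 fold change of -0.70 in the authors' deposited table (adjusted p 0.270), and Mthfd2l, a mitochondrial folate enzyme gene between the chemokine and ligand genes, had -0.31 (adjusted p 0.474). Ppbp had a mean normalized count of 15.0, a log2 fold change of -0.94 and an unadjusted p of 0.00987, without an adjusted p, in the authors' deposited table. The 3 genes Cxcl2, Cxcl3 and 1700063O14Rik were listed at 0. Ligand genes next to Ereg were thus too weakly read to show whether they moved with it.

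**Figure D3:**
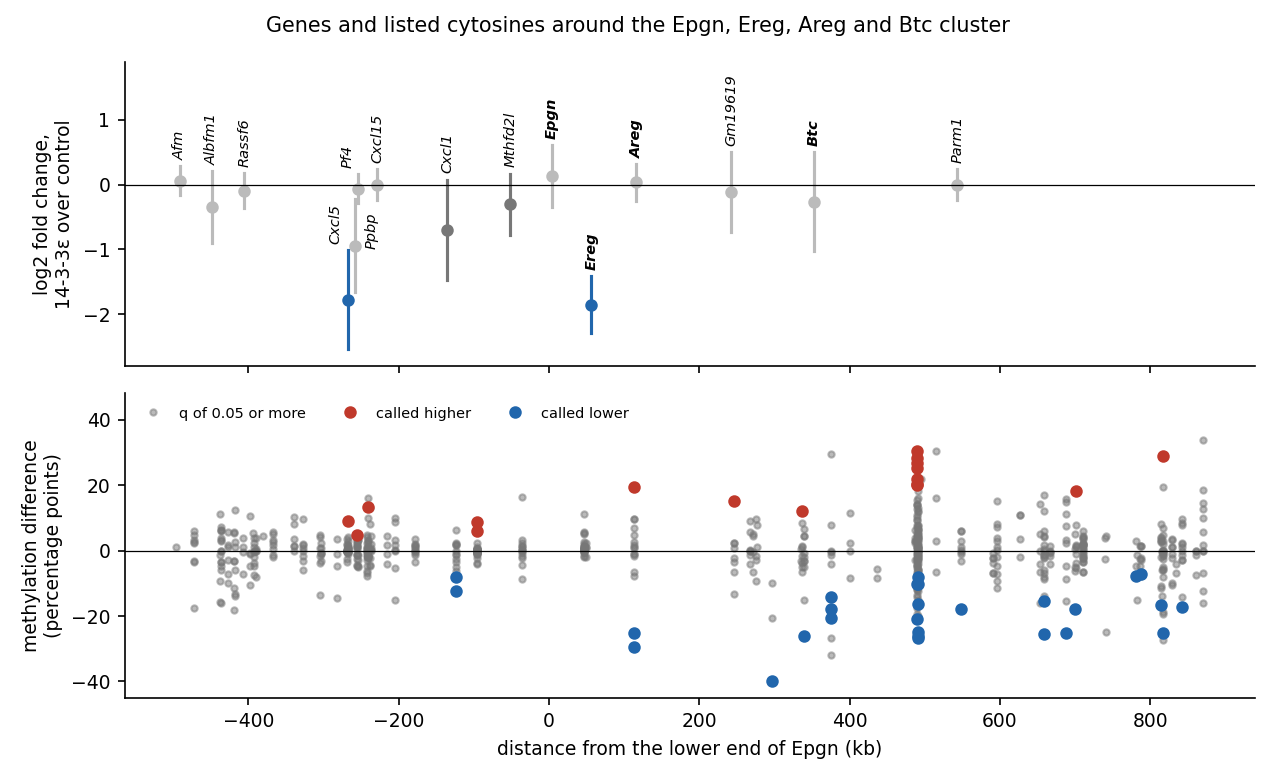
The upper panel plots the log2 fold change with its 95% interval of genes within 500 kb of the Epgn, Ereg, Areg and Btc cluster, against distance in kb from the lower end of Epgn. Blue marks genes that fell (Ereg and Cxcl5), dark grey tested genes not called and light grey genes without an adjusted p. The lower panel plots the methylation difference in percentage points of each listed cytosine, blue where called lower and red where called higher. No called cytosine lies at Ereg.

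Methylation calls in the ligand cluster lay at Areg and Btc and, in 2 cases, between them, 1 of these inside the lncRNA gene Gm19619. Of 106 cytosines listed from the lower end of Epgn to the upper end of Btc, 3 were called higher and 7 lower, 9.43%, where 4.74% of all listed cytosines were called. With 500 kb on either side, 44 of 730 were called, 6.03%. Epgn had no listed cytosine within 2000 bases. At Btc, on the minus strand, 12 cytosines were listed from 25 to 290 bases downstream of the start, with differences from -32.0 to 29.4 points, a median of -9.21 and 10 of 12 below 0 in the authors' deposited table. Their mean was -8.21 points with an SD of 16.9, and 3 were called lower, none with its opposite strand called. Over 17244 start windows with at least 5 listed cytosines, the 5th and 95th percentiles of the window mean were -4.68 and 3.09 points, for a median of 51 cytosines per window. The 8 listed cytosines in the Areg start window had a mean of 3.12 points with an SD of 8.70, and 1 of them, at 91140360, was called higher by 19.4 points (q = 0.0468) in the authors' deposited table. Farther downstream the Areg CpG at 91141058, 1459 bases downstream of the start, was called lower on both strands, by -25.2 and -29.6 points with q-values of 0.000149 and 1.72e-05 in the authors' deposited table.

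Over the 10 members, with 2000 bases on either side, 1272 cytosines were listed and 44 called (3.46%), where 4.74% of all listed cytosines were called. By direction, 16 were higher and 28 lower, where 1.92% of all cytosines were higher and 2.83% lower. The called differences had a median size of 21.3 points and ran from 6.29 to 59.0 in size, and 18 were at least 25 points. Only 5 CpGs were called on both strands, all 5 with the same sign on both. In addition to that of Areg these were 1 in Tgfa and 3 in Erbb3. The Tgfa CpG at 86195459 of chromosome 6, 237 bases downstream of the start, was lower by -35.4 and -28.6 points in the authors' deposited table. Erbb3, on chromosome 10, had 12 called cytosines among 266 listed, 6 higher and 6 lower. Its CpG at 128578151 was lower by -14.8 and -26.8 points and that at 128584809 by -27.8 and -16.8 points, while that at 128584742 was higher by 8.35 and 9.85 points in the authors' deposited table. The CpGs at 128584742 and 128584809, 67 bases apart, thus differed in opposite directions. Of the 3 genes with a CpG called on both strands, Erbb3 was not called in the RNA comparison and Areg and Tgfa had no adjusted p there.

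Genes around the receptor were examined in 5 lists of 81 genes, of which 77 had an adjusted p, 17 rose and 3 fell. These lists were chosen with earlier results of these data known, so their counts are not independent evidence. That is 26.0% called, where 10.9% of all tested genes were called, and the median log2 fold change of the 77 was 0.001. Of 11 genes that restrain the receptor, 2 rose and none fell (18.2% called), with a median of 0.28, against -0.003 over all tested genes. Errfi1, which encodes the inhibitor Mig6 that binds the EGF receptor kinase, rose by 0.75 (SE 0.17, adjusted p 0.000523) on the log2 scale in the authors' deposited table. Lrig1, a transmembrane protein gene that promotes breakdown of Erbb receptors, rose by 0.97 (SE 0.22, adjusted p 0.000549) on the log2 scale in the authors' deposited table. Cbl, which encodes the ubiquitin ligase that marks the activated receptor for breakdown, was not called, at 0.19 in the authors' deposited table (adjusted p 0.654).

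Of 12 genes for shedding and trafficking of ligands, 3 rose and none fell, with a median of -0.01. This is 25% called, where 10.9% of all tested genes were, and none of the 3 passed an adjusted p of 0.01. These were the metalloprotease genes Adam12 and Adam19, at log2 fold changes of 1.08 and 0.79, and Rhbdf1, an inactive rhomboid gene whose product carries Adam17 to the cell surface, at 0.55 in the authors' deposited table. Their adjusted p-values were 0.0188, 0.0130 and 0.0277 in the authors' deposited table. The main sheddase genes Adam10 and Adam17 were not called, with log2 fold changes of 0.36 and 0.28 and adjusted p-values of 0.219 and 0.474 in the authors' deposited table.

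Of 24 adaptors and effectors, 3 rose and none fell, with a median of -0.02. The share called, 12.5%, was near the 10.9% over all tested genes. Stat3, a transcription factor gene, rose by 0.88 (adjusted p 6.76e-05), Pik3r1, the gene of a regulatory subunit of PI3 kinase, by 0.68 (adjusted p 0.0196), and the adaptor gene Shc1 by 0.59 (adjusted p 0.0385) on the log2 scale in the authors' deposited table. The call of Shc1 ended, at an adjusted p of 0.0580, when p-values were adjusted over every gene with a p-value. No Ras, Raf, Mek or Erk gene of the list was called. Of 5 other family members, Egf alone had an adjusted p, with a mean normalized count of 48.5 and a log2 fold change of 0.17 in the authors' deposited table (adjusted p 0.842). Erbb4 was listed at 0, and Nrg2, Nrg3 and Nrg4 had mean normalized counts of 0.250, 0.250 and 1.01 in the authors' deposited table.

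**Figure D4:**
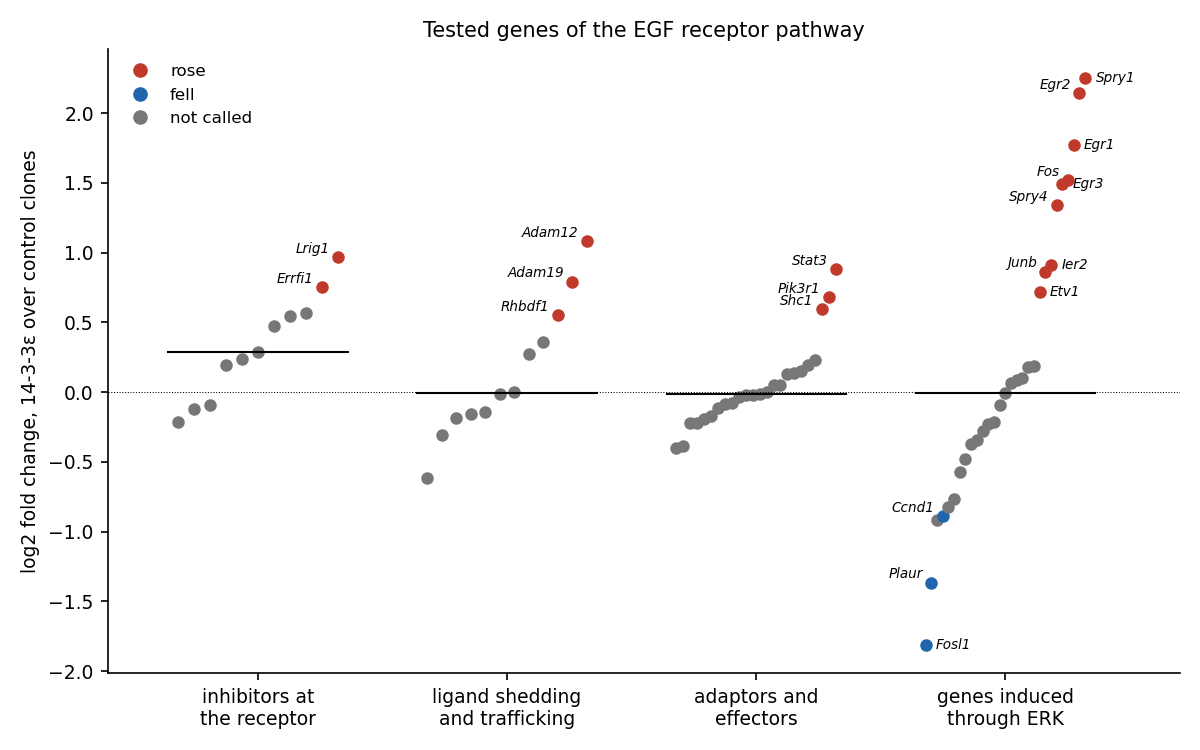
Points are the tested genes of 4 lists around the EGF receptor, plotted by log2 fold change, 14-3-3ε over control clones, and spread sideways by rank. Red genes rose, blue genes fell, grey genes were not called, and bars are list medians. The list of genes induced through ERK spans -1.81 for Fosl1 to 2.25 for Spry1.

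Genes known to be induced by growth factor signalling through ERK moved both ways. Of 29, 9 rose and 3 fell, and 17 were not called, with a median of -0.006. This is 41.4% called, where 10.9% of all tested genes were called, 6.15% higher and 4.74% lower. The 2 shares are not matched for level: mean normalized counts in the list ran from 382 to 42685, and those of all tested genes began at 33.1. This list too was chosen with earlier results of these data known. The early genes Egr1, Egr2, Egr3 and Fos rose by 1.77, 2.14, 1.49 and 1.52 on the log2 scale in the authors' deposited table. The feedback inhibitor genes Spry1 and Spry4 rose by 2.25 and 1.34, and Ier2, Junb and Etv1 rose by 0.91, 0.86 and 0.72 on the log2 scale in the authors' deposited table. Fosl1, an AP-1 subunit gene of the later response, fell by 1.81, the urokinase receptor gene Plaur fell by 1.37 and the cyclin D1 gene Ccnd1 fell by 0.89 on the log2 scale in the authors' deposited table. Ereg, whose transcript is itself induced by growth factors, had a fall of 1.85, and a link of this fall to the genes above was not tested. The prostaglandin synthase gene Ptgs2, Dusp5 and Myc had log2 fold changes of -0.82, -0.57 and -0.77 with adjusted p-values of 0.0541, 0.0558 and 0.0621 in the authors' deposited table, just outside the threshold. The ERK phosphatase gene Dusp6, often read as a marker of ERK output, had 0.18 in the authors' deposited table (adjusted p 0.622). Differences between these genes in their change were not tested, since the table gives no values per clone.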

How the data were processed

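Per the submitters' processing notes, the tools were Trim Galore, Bismark, Bowtie2 and methylKit, and TopHat2, HTSeq and DESeq2, on build mm10; no version, role or setting is stated. The mean normalized count is a signal deposited by the authors, whose header is one that DESeq2 writes for the average of counts divided by size factors, per the file headers. The log2 fold change and its standard error were deposited by the authors, as were a test statistic (a score) and the p-value and adjusted p-value. For each cytosine the RRBS table holds, per the file headers, the methylation difference in percentage points with its p-value and q-value. Its coverage and how clones entered the test are not stated, so q-values may measure read sampling instead of spread between clones. Per-library depth is unknown, and no counting interval is given.

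From these tables, 95% intervals were computed as 1.96 standard errors and p-values were readjusted by Benjamini-Hochberg, using Python 3.11.15, pandas 2.3.3 and numpy 2.4.6. These intervals lie around fold changes that appear held towards 0. Genes were called at an adjusted p under 0.05 over 11482 genes and cytosines at q under 0.05. The 253 duplicate RRBS lines were removed. All 277792 listed cytosines inside RefSeq promoter sequences lay on a C of their strand. The promoter table matched 6 of 10 members (not Ereg, Hbegf, Nrg1 or Erbb3), whose starts were used; for the others both gene ends were. Annotations are RefSeq genes of GRCm38.p6, which give neither exons nor introns. The planned search for EGF domains was not run, for lack of protein sequences here. Members and lists were chosen with earlier results of these data known. Named genes are all members, called list genes and part of the neighbours of members, with a few others chosen after their values were seen. Add2, the next gene on 1 side of Tgfa, had a mean normalized count of 15.0, a log2 fold change of 1.09 and no adjusted p from the authors. Benjamini-Hochberg adjustment over every gene with a p-value gave it 0.0420. Neighbours left unnamed were not called or had no adjusted p. Adjustment and window steps were tested on simulated data. Clones came from single colonies, so p-values of the RNA comparison measure at most the spread between 2 clones per group.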

Additional observations from a re-analysis of the deposited data

How the results depend on the processing

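The calls of Egfr (higher) and Ereg (lower), and of no other member, held at an adjusted p of 0.01 or 0.1, with at least a 2-fold change as well, and with adjustment over every gene with a p-value. Subtracting the median of all tested genes, an alternative chosen after seeing the data, gave log2 fold changes of 1.67 for Egfr and -1.85 for Ereg. At an adjusted p under 0.01, 413 genes were higher and 252 lower over the whole table, against 706 and 544, and 11 list genes were higher, against 17. With at least a 2-fold change as well, 331 genes were higher and 122 lower, and 7 list genes were higher. At an adjusted p under 0.1, 7 list genes were lower, against 3. Cytosines called at starts or ends of members numbered 6 higher and 8 lower; at q under 0.01 these were 3 and 2, with a difference of at least 25 points 2 and 3, and within 500 bases 3 were higher. The share of all cytosines called was 4.74%, 2.47% at q under 0.01 and 1.34% with at least 25 points. Of the alternative values for the counts and shares above, 22 stayed within 1.5 times and 14 did not. Of 226 alternative values for single lists, genes or windows, 202 stayed within set limits and 24 did not. The limits were the same call for a gene, 1.5 times the count, or a window mean moved by less than 1 SD over cytosines. Part of the 202 could not change. Windows without a listed cytosine hold 0 calls at every setting, and subtracting the median left each adjusted p as it was. Within these limits small window means could change sign: that of Areg was 3.12 points and -0.99 within 2000 bases, that of Erbb2 -0.17 and 0.54 within 500 bases. The cause was not tested. Leaving out clones could not be done, since the tables hold no value per clone. No paired analysis was possible because the 14-3-3ε and control clones share no number and the tables hold no value per clone.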
